A study of Mus musculus with 9 samples.

Results

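The mouse genes described here encode 4 epithelial surface glycoproteins, Epcam, Ceacam1, Cd24a and Prom1, and the matriptase system, made up of the protease matriptase (St14) and its inhibitors HAI-1 (Spint1) and HAI-2 (Spint2). These 7 genes were taken by symbol from 54838 gene identifiers, and each symbol had 1 identifier. They were followed in the pancreatic ductal adenocarcinoma line PDA530 Met. The line came from a male KPC mouse, a genetic model of this cancer with a mixed 129/SvJae/C57Bl/6 background, and from its metastasis in the liver. RNA-seq was made from 3 untreated libraries in each of 3 groups. The knockout group was 1 single-cell clone (E4) edited with CRISPR/Cas9 in Zdhhc20, the gene of an enzyme that attaches palmitate to proteins. The control group was 1 single-cell clone (C5) that had been nucleofected with the same guide RNAs, came out unedited and keeps Zdhhc20 expression; it is called the unedited clone here and its libraries control replicates 1 to 3. The parental line is the uncloned PDA530 Met population, written PDA50 Met in the design text. Each clonal group is 1 clone, so its libraries repeat that clone and cannot tell the edit apart from other differences between clones, and p-values measure the spread between libraries of a group. In bulk RNA, fewer cells with a transcript and less of it per cell cannot be told apart.

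EpCAM is an adhesion molecule of most epithelia that binds the tight junction protein claudin-7. CEACAM1 is an immunoglobulin-like adhesion molecule whose cytoplasmic tail can carry inhibitory signals, CD24 is a small, heavily glycosylated protein held by a lipid anchor, and prominin-1 (CD133) is a protein of membrane protrusions that is widely used as a stem cell marker. Matriptase is a membrane-bound serine protease of epithelial surfaces that activates other proteases, receptors and growth factors and can cleave EpCAM, and HAI-1 and HAI-2 are Kunitz-type inhibitors on the same membranes that hold it and its relatives in check.

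Total counts per library ranged from 16525869 to 23192701. Zdhhc20 was at 38.0 ± 4.34 CPM (counts scaled to an equal, TMM-adjusted library size) in the edited clone, 110 ± 20.7 CPM in the unedited clone and 82.4 ± 7.74 CPM in the parental line (SD, n = 3), and was called lower in the knockout clone against both. Ductal markers (Krt7, Krt8, Krt18, Krt19, Cdh1, Sox9 and Muc1) summed to 4410 to 4545 CPM for the knockout clone, 7285 to 9749 CPM for the unedited clone and 6821 to 8301 CPM for the parental line. Of these 7 genes, 6 were called lower in the knockout clone against the unedited clone and 5 against the parental line, as were 24.2% and 18.3% of all genes tested; the part of this drop in the differences of Spint2 was not tested. Sums for fibroblast markers were 0.818 to 1.67 CPM for the knockout clone, 1.31 to 2.89 CPM for the unedited clone and 3.12 to 3.998 CPM in the parental line. Leukocyte markers summed to 0.890 to 1.23, 1.58 to 2.84 and 1.40 to 2.06 CPM, endothelial markers to 0.223 to 0.467, 0.238 to 0.525 and 0.118 to 0.294 CPM, and hepatocyte markers to 0.0977 to 0.175, 0.179 to 0.525 and 1.12 to 3.00 CPM, in the same order of groups. No count in any library was held by 3 leukocyte and 5 fibroblast markers, among them Cd3e, Adgre1, Col1a2, Col3a1, Dcn, Lum and Thy1. The part of such low signals in the values of rare transcripts below was not tested. Libraries of the unedited clone varied most: the median SD of log2 CPM over genes was 0.203 there, against 0.0753 (knockout) and 0.0839 (parental). Control replicate 3 minus control replicate 2 was 1.54 for Ceacam1, 0.69 for Spint2, 0.43 for Cd24a and 0.23 for Epcam on the log2 scale, so Spint2 and Cd24a are also given without control replicate 2 and Ceacam1 without control replicate 3.

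The name of the group did not describe this line well: Cd24a and Spint2 were well expressed in every library, while Epcam and Ceacam1 were at or under 0.892 CPM and St14, Spint1 and Prom1 were close to no signal. Per length, as TPM (counts scaled by annotated exon length and to an equal total in every library), Cd24a was at 534 ± 3.48 TPM for the knockout clone, 317 ± 46.9 TPM in the unedited clone and 594 ± 25.5 TPM in the parental line (SD, n = 3), ranks 268, 433 and 251 among the genes tested. Spint2 was at 39.6 ± 0.711, 99.2 ± 22.5 and 75.2 ± 9.03 TPM in the same order. In each group Cd24a was above Spint2, and Spint2 above the other members, with no overlap between libraries. Epcam came next in the knockout clone at 0.879 ± 0.0411 TPM, apart from the remaining members, whose libraries lay between 0 and 0.0640 TPM and overlapped. In the unedited clone and the parental line, the levels of Epcam (0.155 to 0.225 and 0.173 to 0.347 TPM), Ceacam1 (0.117 to 0.433 and 0.228 to 0.446 TPM) and Spint1 (0 to 0.214 and 0.0551 to 0.616 TPM) overlapped and had no order beyond their spread. St14 stayed at or under 0.0496 TPM and Prom1 at or under 0.0528 TPM in all 9 libraries. Keratins and E-cadherin were at high levels beside these near-absent surface genes, with Cdh1 at 754 to 1445 CPM and Krt8 at 1268 to 3057 CPM.

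**Figure D1:**
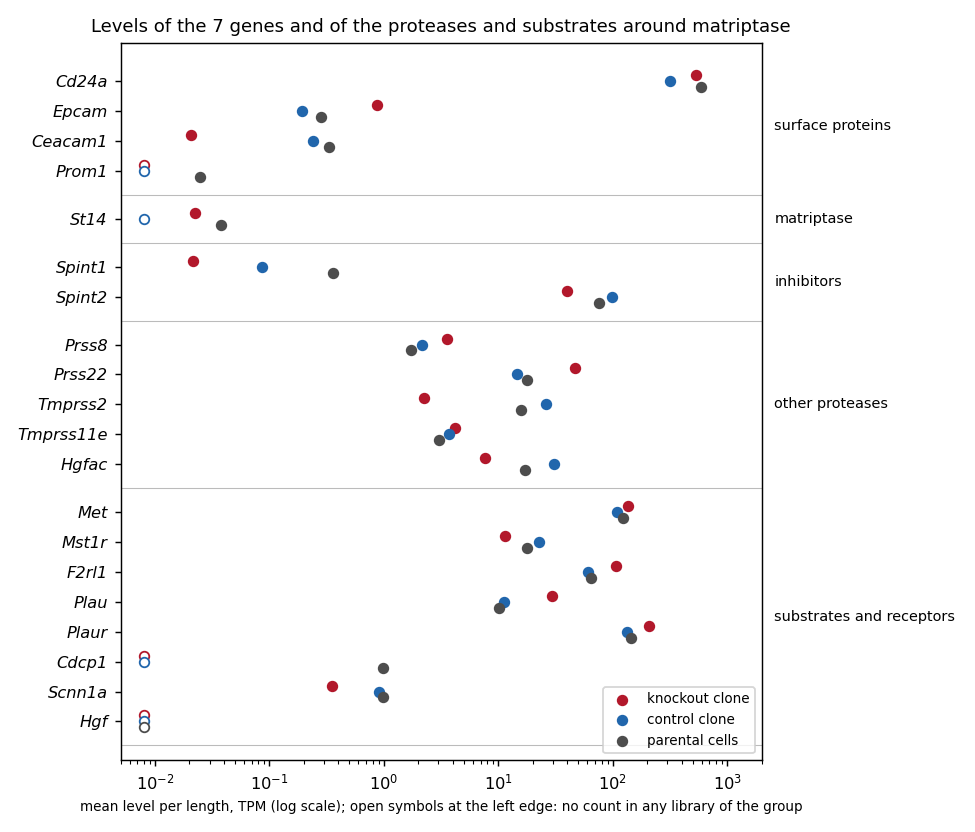
Mean level per length in TPM (log axis) of the 7 genes and of proteases and substrates around matriptase, 1 symbol per group of 3 libraries (the unedited clone is the control clone of the legend), open symbols at the left edge marking groups with no count. Cd24a and Spint2 lie far to the right of St14, Spint1, Prom1, Epcam and Ceacam1, while other proteases such as Prss22, Tmprss2 and Hgfac and the receptors Met and F2rl1 are well expressed.

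Promoter sequences were compared because expressed and near-absent genes stand side by side in this family. RefSeq promoters on GRCm38.p6 were found for 5 of the 7 genes, and the 250 bases before the start are given 5′ to 3′ on the gene's strand for 4 of them, with CACCTG (or CAGGTG on the other strand), the E-box bound by ZEB and SNAI repressors, and ACCGGT, the centre of the Grainyhead-like consensus, in capitals. Spint2 (chr7:29281978-29282227, minus strand) represents an expressed gene, Spint1 (chr2:119237110-119237359, plus strand) its near-absent relative, and Epcam (chr17:87635729-87635978, plus strand) and Ceacam1 (chr7:25477626-25477875, minus strand) the members with few counts.
Spint2: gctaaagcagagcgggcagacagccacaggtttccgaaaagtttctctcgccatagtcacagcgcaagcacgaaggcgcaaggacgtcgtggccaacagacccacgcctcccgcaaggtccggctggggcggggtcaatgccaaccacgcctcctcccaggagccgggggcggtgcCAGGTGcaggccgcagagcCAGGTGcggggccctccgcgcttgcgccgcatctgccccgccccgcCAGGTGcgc
Spint1: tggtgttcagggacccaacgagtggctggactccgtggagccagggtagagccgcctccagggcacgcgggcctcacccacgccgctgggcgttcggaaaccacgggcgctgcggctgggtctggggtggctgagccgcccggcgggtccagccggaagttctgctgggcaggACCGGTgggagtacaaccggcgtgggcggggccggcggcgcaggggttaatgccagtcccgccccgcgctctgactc
Epcam: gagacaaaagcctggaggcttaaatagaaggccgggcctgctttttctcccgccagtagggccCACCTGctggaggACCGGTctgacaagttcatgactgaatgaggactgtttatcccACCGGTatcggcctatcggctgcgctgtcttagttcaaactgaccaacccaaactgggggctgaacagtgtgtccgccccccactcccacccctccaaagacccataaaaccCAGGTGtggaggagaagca
Ceacam1: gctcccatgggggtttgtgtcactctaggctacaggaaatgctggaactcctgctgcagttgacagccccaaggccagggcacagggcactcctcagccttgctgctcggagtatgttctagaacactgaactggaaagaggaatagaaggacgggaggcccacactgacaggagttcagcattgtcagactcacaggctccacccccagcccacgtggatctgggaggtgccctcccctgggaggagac
The windows of Spint2 and Spint1 were alike in composition, with 24 and 26 CpG dinucleotides and 69.6% and 72.8% G and C, against medians of 6 and 52.4% over 32841 promoter windows of the same length. Epcam had 8 CpG dinucleotides and Ceacam1 had 3. The E-box letters occurred 3 times before Spint2 and 2 times before Epcam, and were in neither of the remaining printed windows. Of all windows, 17.2% held them and 2.06% held them 2 or more times. The near-absent Prom1, the fifth gene with a promoter, had 2 windows, which are not printed, and 1 of them held the E-box letters 1 time. ACCGGT occurred 2 times before Epcam and 1 time before Spint1, was in neither window of Prom1, and was in 1.86% of all windows (0.0274% with 2 or more). Matches of letters describe the sequence and are not binding sites, and the motifs were chosen after the windows had been read.

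For the 3 comparisons between groups, edgeR's quasi-likelihood test was run across all genes, with calls made where the Benjamini-Hochberg adjusted p was under 0.05. The low-count filter left 13153 genes and 4 of the 7 members. Cd24a and Spint2 passed it in all libraries. Epcam passed it through its 3 knockout libraries alone, so that it had to differ to be tested, and Ceacam1 passed through 1 control and 2 parental libraries. Against the unedited clone the 4 tested members were called, 2 up and 2 down in the knockout clone, where 42.9% of all genes were called (18.7% up, 24.2% down). Against the parental line 3 were called, 1 up and 2 down, where 31.4% of all genes were called (13.1% up, 18.3% down). The unedited clone against the parental line gave 2 calls, 1 up and 1 down, where 21.4% of all genes were called (10.4% up, 11.0% down). Spint2 and Ceacam1 were called down in both knockout comparisons, where 13.4% of all genes were. Epcam was called up in both of them in the filtered fit, where 8.19% of all genes were (21.5% in either direction), and without a filter 2 members in place of 3 were called in both. With so few members tested, and Epcam and Ceacam1 let in by the groups where they were high, these counts are a description. The comparisons share libraries pair by pair, so their values for a gene are not independent.

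**Figure D2:**
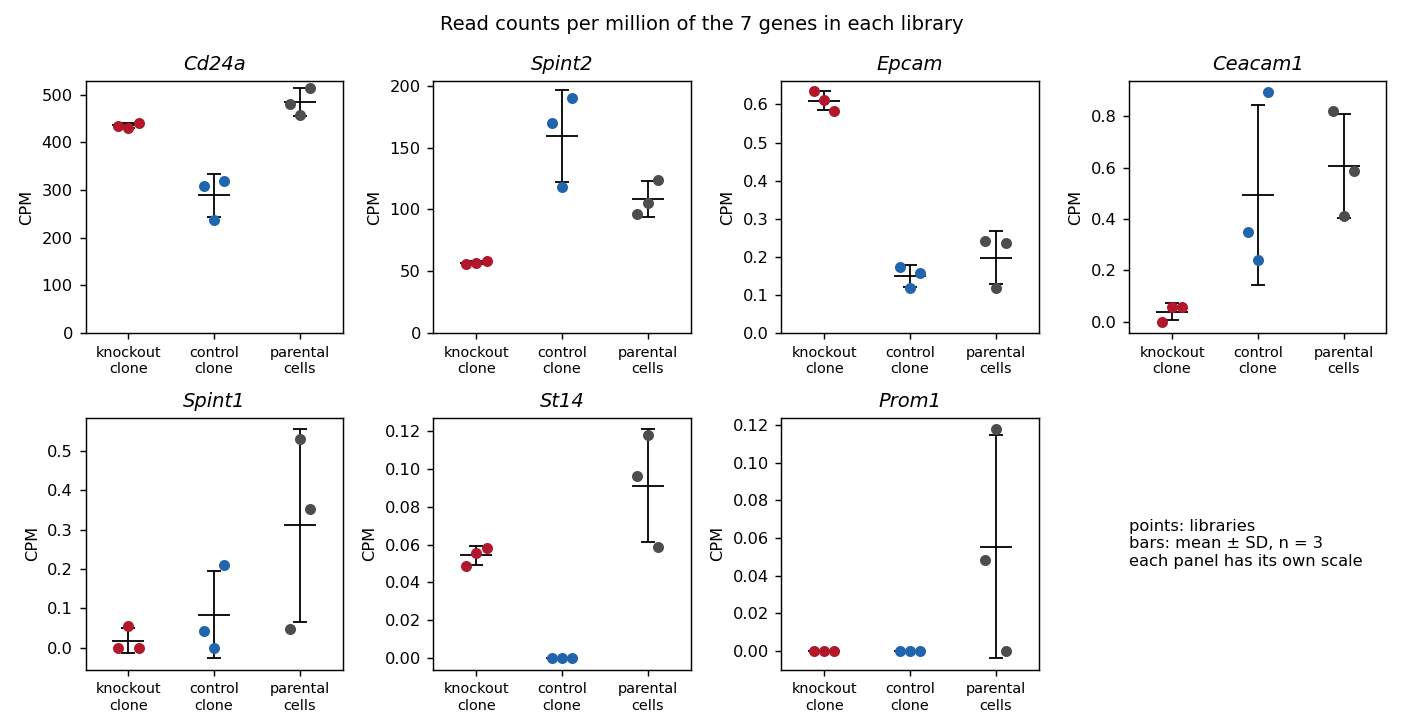
CPM of the 7 genes in each library (points) with the group mean and SD (bars, n = 3), each panel on its own linear scale. Spint2 was lowest in the knockout clone and Cd24a lowest in the unedited clone, whereas Epcam, Ceacam1, Spint1, St14 and Prom1 stayed under 1 CPM in all 9 libraries.

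Spint2, which encodes HAI-2, was the gene of the matriptase system with enough counts to be tested, and it was lowest in the knockout clone. Spint2 (ENSMUSG00000074227, chromosome 7 from 29256323 to 29281912 on GRCm38, minus strand) measured 55.9, 56.9 and 58.4 CPM across knockout replicates 1 to 3. The control libraries held 170, 118 and 190.5 CPM and the parental libraries 96.0, 105 and 124 CPM. All knockout libraries lay under all others, and the control and parental libraries overlapped through control replicate 2. The mean was 57.1 ± 1.27 CPM for the knockout clone, 160 ± 37.3 CPM for the unedited clone and 108 ± 14.3 CPM in the parental line (SD, n = 3). The knockout clone held 2.80-fold less Spint2 than the unedited clone (log2 fold change -1.48, SE 0.17, adjusted p 0.000141) and 1.90-fold less than the parental line (log2 fold change -0.93, SE 0.16, adjusted p 0.00266). The first call held in all alternatives run and the second in all but the added threshold of 1 on the log2 scale, with -1.66 and -0.92 when control replicate 2 was left out. Spint2 was called in all 3 comparisons, as were 5.13% of all genes. The groups of each knockout comparison did not overlap, as was so for 51.6% and 61.5% of all genes. The unedited clone was 1.47-fold above the parental line (log2 fold change 0.56, SE 0.16, adjusted p 0.0364), a call that was lost under the added fold threshold and in 10 refits: with total-count scaling (adjusted p 0.0502), in the fit of only these groups (0.0954), and when any library but control replicate 2 was left out (log2 fold change 0.41 to 0.65). Without control replicate 2 the difference was 0.73 (adjusted p 0.00123).

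Cd24a, by far the most abundant member, set the unedited clone apart instead of the knockout clone. Cd24a (ENSMUSG00000047139, chromosome 10 from 43578284 to 43584265, plus strand) measured 435, 430 and 442 CPM across the knockout libraries, 309, 237 and 319 CPM across the control libraries and 482, 457 and 515 CPM in the parental libraries. The 3 control libraries were under all others, with replicate 2 lowest, and the knockout libraries lay just under the parental ones. The unedited clone was 1.68-fold lower than the parental line (log2 fold change -0.75, SE 0.11, adjusted p 0.00188), and the knockout clone was 1.51-fold higher than the unedited clone (log2 fold change 0.59, SE 0.11, adjusted p 0.0021). Neither call was lost with another scaling, filter, tool or block, in fits of only these groups or without any 1 library, and the values were -0.63 and 0.47 without control replicate 2. Both differences are smaller than 1 on the log2 scale, so they did not pass the added fold threshold. Of all genes, 13.4% set the unedited clone apart by calls of 1 direction against both other groups, and 37.3% did not overlap between it and the parental line. The knockout libraries did not overlap the control libraries for 51.6% of all genes, and the parental libraries for 61.5%. Between the knockout clone and the parental line Cd24a was not called (log2 fold change -0.15, SE 0.11, 95% interval -0.37 to 0.06, adjusted p 0.309), although it was in the fit of only these groups (adjusted p 0.0385). Of the 50-base windows of its annotated transcripts, 2.75% also occur in other genes, mostly the Gm6212, and reads from there could be shared.

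Epcam was barely expressed and was higher in the knockout clone, opposite in direction to Spint2 and Ceacam1. Epcam (ENSMUSG00000045394, chromosome 17 from 87635979 to 87651129, plus strand) held 13, 11 and 10 counts in the knockout libraries, 4, 2 and 3 in the control libraries and 5, 2 and 4 in the parental libraries. Each knockout library was above every other library, at 0.635, 0.612 and 0.584 CPM, whereas the others reached at most 0.241 CPM. Such a lack of overlap was seen for 51.6% of all genes against the unedited clone and 61.5% against the parental line. Because the filter let Epcam in for its knockout libraries, the fit without a filter is the one that bears on it: its adjusted p was 0.0229 against the unedited clone and 0.0821 against the parental line. In the filtered fit the knockout clone was 3.88-fold above the unedited clone (log2 fold change 1.96, SE 0.41, adjusted p 0.00393) and 2.99-fold above the parental line (log2 fold change 1.58, SE 0.40, adjusted p 0.0139). Counting intervals (95%, exact, for counting error only) allowed 1.88-fold to 9.47-fold and 1.51-fold to 6.66-fold. The first call held in all alternatives that tested the gene. The second was lost without a filter, as given, with DESeq2 (adjusted p 0.0644), without knockout replicate 1 (0.0553) and without parental replicate 2 (0.066). Unedited clone and parental line were not told apart (log2 fold change -0.38, 95% interval -1.34 to 0.59, adjusted p 0.692).

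Ceacam1 transcripts were few in the unedited clone and the parental line and nearly missing in the knockout clone. Ceacam1 (ENSMUSG00000074272, chromosome 7 from 25461707 to 25477603, minus strand) held 0, 1 and 1 counts in the knockout libraries, 8, 4 and 17 in the control libraries and 17, 7 and 10 in the parental libraries. No knockout library reached the lowest of the others. From the summed counts the unedited clone was 13.7-fold above the knockout clone (95% counting interval 3.47 to 119) and the parental line 17.3-fold above it (4.43 to 148), with adjusted p values of 0.00871 and 0.00743, and of 0.00417 and 0.00241 without a filter. Control replicate 3 held 17 of the 29 control counts, and the first ratio was 8.40-fold without it. Without knockout replicate 1, which held no count, the ratios were 8.66-fold and 10.9-fold. Both calls held in each alternative that tested the gene, and the filter at a mean of 5 CPM and the fits of only these groups did not test it. Unedited clone and parental line differed by -0.31 on the log2 scale (95% interval -1.39 to 0.77, adjusted p 0.725). Of the 50-base windows in Ceacam1 transcripts, 30.4% occur in other genes, mostly its close relative Ceacam2, which held no count in any library, so the division of reads between them is uncertain.

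St14, Spint1 and Prom1 were too low to test. Matriptase (St14, ENSMUSG00000031995, chromosome 9 from 31089402 to 31131853) held 1 count in each knockout library, 0 in the control libraries and 2, 2 and 1 in the parental libraries. The 95% counting interval of the 0 counts of the unedited clone reached 0.0628 CPM. HAI-1 (Spint1, ENSMUSG00000027315, chromosome 2 from 119237362 to 119249527) held 0, 1 and 0 counts in the knockout clone, 1, 0 and 4 in the unedited clone and 1, 9 and 6 in the parental line. Its summed level was highest in the parental line, at 0.292 CPM (95% counting interval 0.167 to 0.475). It was 0.0851 CPM (0.0276 to 0.1985) in the unedited clone and 0.0180 CPM (0.000456 to 0.1003) in the knockout clone. The intervals of the parental line and the unedited clone overlap. Prominin-1 (Prom1, ENSMUSG00000029086, chromosome 5 from 43993620 to 44102032) held 1, 2 and 0 counts in the parental libraries and 0 in all clone libraries. When no filter was used, the smallest adjusted p among these 3 genes was 0.0609, for Spint1 between the knockout clone and the parental line, so none was called. Exons of Prom1 share 424 bases with Gm16401 on the opposite strand, which held no count.

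**Figure D3:**
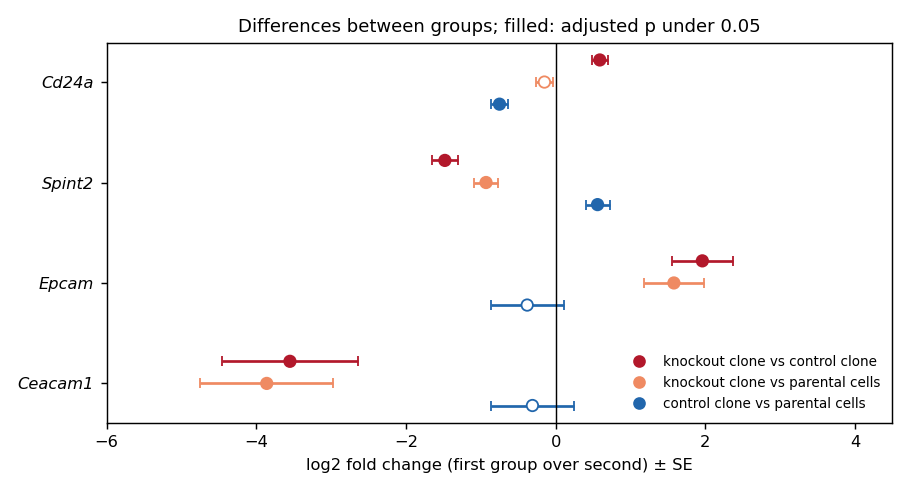
Fitted log2 fold change with its SE for the 4 tested members in each comparison, filled symbols marking an adjusted p under 0.05. Spint2 and Ceacam1 lie left of 0 and Epcam right of 0 in both knockout comparisons. Cd24a differs in both comparisons that involve the unedited clone. The Ceacam1 values rest on 2 knockout counts. All values are from the filtered fit, which Epcam entered through its 3 knockout libraries alone. Without a filter the adjusted p of Epcam against the parental line was 0.0821, so it was not called.

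Spint2 transcripts were present with almost no matriptase transcript, and other proteases of this kind were measured. Of 11 listed proteases, 5 were tested and 2 held no count at all. Against the unedited clone 1 was called higher and 2 lower (median log2 fold change 0.01, all genes -0.02), and against the parental line 2 higher and 2 lower (median 0.45, all genes -0.01), where 42.9% and 31.4% of all genes were called. Tmprss2, a membrane-bound protease that HAI-2 inhibits, was at 5.14 ± 0.595 (knockout), 67.6 ± 25.8 (unedited) and 36.8 ± 11.7 CPM (parental; SD, n = 3), with log2 fold changes of -3.72 (adjusted p 5.22e-05) and -2.84 (adjusted p 0.000353) in the knockout comparisons. Hgfac, the activator of hepatocyte growth factor, fell in the knockout clone to 8.22 ± 1.102 CPM from 37.1 ± 6.93 and 18.5 ± 0.151 CPM (log2 fold changes -2.17 and -1.17, adjusted p at most 0.000512). Prss22, a secreted tryptase, rose to 19.6 ± 2.82 CPM from 6.74 ± 1.04 and 7.39 ± 1.45 CPM (log2 fold changes 1.54 and 1.40, adjusted p at most 0.000499). Prostasin (Prss8), the usual partner of matriptase, was at 0.915 to 2.51 CPM and was called higher in the knockout clone against the parental line (log2 fold change 1.03, adjusted p 0.0264), a call lost without knockout replicates 1 or 3 or any parental library (adjusted p 0.0676 to 0.0975). Tmprss11e was at 2.56 to 5.51 CPM and was not called. Hepsin (Hpn) held 1 count in all libraries together.

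Among 12 substrates and receptors of the system, 7 were tested and 4 held no count, among them Hgf, the ligand of Met. Against the unedited clone 3 were called higher and 2 lower (median log2 fold change 0.17), and against the parental line 3 higher and 3 lower (median 0.14), where 42.9% and 31.4% of all genes were called. The protease-activated receptor gene F2rl1 rose in the knockout clone to 93.2 ± 2.25 CPM from 58.6 ± 5.81 CPM in the unedited clone and 55.8 ± 2.47 CPM in the parental line (log2 fold changes 0.67 and 0.74, adjusted p at most 0.00029). F2rl1 lies on chromosome 13, and a shift of that chromosome as a whole was not tested here. Urokinase (Plau) rose to 22.3 ± 2.27 CPM from 9.26 ± 1.82 and 7.60 ± 1.03 CPM (log2 fold changes 1.27 and 1.55, adjusted p at most 0.000287). The receptor gene Mst1r fell to 18.3 ± 2.64 CPM from 39.9 ± 1.005 and 28.3 ± 1.98 CPM (log2 fold changes -1.13 and -0.63, adjusted p at most 0.00268), and lies on chromosome 9, where the median over 748 tested genes was -0.53 in both knockout comparisons. Scnn1a, a subunit of the epithelial sodium channel, was at 0.456 ± 0.197 CPM in the knockout clone against 1.32 ± 0.402 and 1.27 ± 0.0868 CPM (log2 fold changes -1.49 and -1.45, adjusted p 0.00933 and 0.0154), and its second call was lost without knockout replicates 2 or 3 (adjusted p 0.0586 and 0.0626). Met, the hepatocyte growth factor receptor, was at 265 to 347 CPM and was called in no comparison. Cdcp1, a membrane protein that matriptase cleaves, held no count in either clone and was at 2.08 ± 0.433 CPM in the parental line, which makes it at least 38.9-fold lower in the edited and at least 41.2-fold lower in the unedited clone (adjusted p 0.00097 and 0.00179).

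Partners of EpCAM were mostly expressed, and more were called lower than higher in the knockout clone. Of 15 listed, 12 were tested. Against the unedited clone 3 were called higher and 7 lower (median log2 fold change -0.24), where 18.7% of all genes were higher and 24.2% lower. Against the parental line 2 were called higher and 5 lower (median -0.26), where 13.1% of all genes were higher and 18.3% lower. Tspan8, a tetraspanin that forms membrane complexes with EpCAM, fell to 238 ± 9.42 CPM from 580 ± 61.2 and 398 ± 44.8 CPM (log2 fold changes -1.29 and -0.74, adjusted p at most 0.00073). The sheddase gene Adam10 fell to 201 ± 2.97 CPM from 369 ± 66.9 and 415 ± 22.5 CPM (log2 fold changes -0.87 and -1.05, adjusted p at most 0.000476), also on chromosome 9 with its medians of -0.53, and Cdh1 fell by 0.74 and 0.65 on the log2 scale (adjusted p at most 0.00263). Cldn4, a claudin of tight junctions, also rose from a low level, to 1.48 ± 0.609 CPM from 0.116 ± 0.0507 and 0.143 ± 0.0731 CPM (log2 fold changes 3.57 and 3.29, adjusted p at most 0.0014). Cldn4 too passed the filter through its 3 knockout libraries alone, and without a filter its adjusted p values were 6.7e-05 and 0.000204. Cldn7 was at 3.18 ± 0.656, 2.05 ± 0.101 and 4.38 ± 0.742 CPM and had the order of groups seen for Cd24a, with a log2 fold change of -1.09 for the unedited clone against the parental line (adjusted p 0.00757). Its call between the clones (log2 fold change 0.63, adjusted p 0.0407) was lost in 11 alternatives (adjusted p up to 0.139). Cldn1 and Lef1 held no count.

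Most relatives of Ceacam1 were not expressed. Of 15 genes of the Ceacam family and its effectors, 8 held no count and 4 were tested. Of these, 1 was called against the unedited clone (lower), 2 against the parental line (1 higher and 1 lower), and 2 in the unedited clone against the parental line (both higher), where 42.9%, 31.4% and 21.4% of all genes were called. Havcr2, a partner of CEACAM1 better known from T cells, was at 13.7 ± 2.05, 37.1 ± 8.90 and 21.5 ± 1.97 CPM and fell against the unedited clone (log2 fold change -1.44, adjusted p 0.00026). The call of Havcr2 against the parental line (-0.65, adjusted p 0.0219) was lost without knockout replicates 1 or 3 or parental replicates 2 or 3 (adjusted p 0.0693 to 0.0839). Among 10 partners of CD24 and prominin-1, 8 were tested, and 2 were called higher and 1 lower in each knockout comparison, where 42.9% and 31.4% of all genes were called. Prom2, the relative of Prom1, held at most 1 count in any library. Of 8 surface and enzyme markers used for tumour-initiating cells beside CD24, EpCAM and CD133, 6 were tested. Of these, 2 were called lower against the unedited clone and 4 against the parental line, where 24.2% and 18.3% of all genes were lower, and the rest were not called. Aldh1a1, a retinaldehyde dehydrogenase, fell to 28.2 ± 4.79 CPM from 89.3 ± 27.2 and 106 ± 27.5 CPM (log2 fold changes -1.67 and -1.91, adjusted p at most 0.000636).

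Regulators of epithelial surface genes included several that were called lower in the knockout clone, and 1 of 16 held no count in any library. Of the 16 listed, 11 were tested. Against the unedited clone 2 were called higher and 7 lower (median log2 fold change -1.22), where 42.9% of all genes were called and 24.2% were lower. Against the parental line 2 were called higher and 5 lower (median -0.57), where 31.4% of all genes were called and 18.3% were lower. Grhl2, a Grainyhead-like factor of epithelial junction genes, held 0 counts in the knockout clone, 9 in the unedited clone and 6 in the parental line, and the splicing factor gene Esrp1 held none. Grhl3 held no count in the knockout clone and measured 0.829, 0.357 and 4.93 CPM across the control libraries and 3.035, 3.24 and 6.71 CPM across the parental libraries, which is at least 37.5-fold and 78.5-fold lower in the edited clone (adjusted p 0.0128 and 0.0077). The first bound rests on control replicate 3, which held 94 of the 119 control counts, and is at least 11.7-fold without it. Grhl3 passed the filter through 2 control and 3 parental libraries, and without a filter its adjusted p values were 0.000101 and 1.23e-05. Elf3 fell to 12.5 ± 0.380 CPM from 66.9 ± 27.6 and 49.8 ± 10.9 CPM (adjusted p at most 0.00124), and Klf4 to 45.2 ± 8.57 CPM from 163 ± 31.6 and 162 ± 37.3 CPM (adjusted p at most 0.000238). Ehf, with 2 knockout counts, was 16.6-fold (95% counting interval 4.25 to 142) and 18.3-fold (4.71 to 157) higher in the other groups (adjusted p at most 0.00545). It passed the filter through 1 control and 2 parental libraries, and without a filter its adjusted p values were 0.00162 and 0.00155. Both knockout counts of Ehf lay in replicate 2, and leaving it out gave at least 7.46-fold and 8.25-fold. Without knockout replicate 1 the ratios were 10.45-fold and 11.5-fold. The repressor gene Zeb2 had the reverse order of Spint2, at 33.1 ± 2.25 CPM for the knockout clone, 10.0 ± 2.02 CPM in the unedited clone and 19.0 ± 0.970 CPM in the parental line, and was called in all 3 comparisons (adjusted p at most 0.00258). Zeb1 was at 52.9 to 64.7 CPM and was not called. Twist1 held no count in the knockout clone and was at least 6.30-fold and 41.3-fold lower there than in the unedited clone and the parental line (adjusted p 0.00316 and 0.000244). The gene lies on chromosome 12, and a shift of that chromosome as a whole was not tested here. Twist1 and Cdcp1 passed the filter through the 3 parental libraries alone, and the calls given for them held without a filter.

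The nearest tested genes on each side of a member are given next. Beside the near-absent St14 lay Zbtb44 (13.5 kb away, 41.2 to 66.0 CPM) and Aplp2 (17.7 kb away, 124 to 431 CPM), and beside Spint1 lay Zfyve19 (20.3 kb away, 13.3 to 19.7 CPM) and Vps18 (39.2 kb away, 23.3 to 27.6 CPM), so the neighbours of both genes were expressed. The knockout clone held less Zbtb44 and Aplp2 than the unedited clone (log2 fold changes -0.56 and -1.36, adjusted p at most 0.000923), on the same chromosome 9 with its median of -0.53. Against the parental line Zbtb44 was also lower (-0.53, adjusted p 0.0019), a call that no refit lost. The calls of Aplp2 against the parental line (-0.68, adjusted p 0.0256) and between the unedited clone and the parental line (0.68, adjusted p 0.0338) were lost in 6 and 8 alternatives (adjusted p up to 0.102 and 0.126). 2200002D01Rik, 7.86 kb from Spint2, had the same order of groups as Spint2, at 55.1 ± 4.43, 91.2 ± 5.57 and 70.4 ± 6.48 CPM. Its level in the knockout clone was under that of the unedited clone (log2 fold change -0.73, adjusted p 0.000355); its calls against the parental line (-0.35, adjusted p 0.0208) and between the unedited clone and the parental line (0.37, adjusted p 0.0225) were each lost in 4 alternatives (adjusted p up to 0.0944 and 0.107). Ppp1r14a, 7.40 kb away on the other side, was at 0.819 to 1.57 CPM and was not called, and the 973 tested genes of chromosome 7 had medians of -0.02, -0.02 and -0.01. The 687 tested genes of chromosome 17, which carries Epcam, had medians of 0.14 and 0.21 in the knockout comparisons. The neighbours of Ceacam1 (Lipe at 3.09 to 7.18 CPM and Dmac2 at 9.81 to 13.8 CPM) were called in no comparison. Beside Cd24a, Qrsl1 was not called, and 1700021F05Rik was called only in the knockout clone against the parental line (log2 fold change -0.42, adjusted p 0.0259), a call lost in 6 alternatives (adjusted p 0.0599 to 0.102). Beside Prom1, Fgfbp1 (0.177 to 7.61 CPM) was higher in the unedited clone than in the parental line (log2 fold change 3.82, adjusted p 0.00355), with 2.91 when control replicate 3 was left out. Its calls in the knockout comparisons (log2 fold changes -1.74 and 2.08, adjusted p 0.0247 and 0.0433) were lost in 6 and 8 alternatives. Against the unedited clone the value without control replicate 3 was -0.83 (adjusted p 0.0667). Gm42427 (2.98 to 6.68 CPM) was called lower for the knockout clone against the unedited clone (log2 fold change -0.90, adjusted p 0.00541).

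Genes with the most similar course over the 9 libraries were found by the root mean square difference of log2 CPM after each gene was centred on its own mean, with candidates limited to a mean of 5 CPM or more. For Spint2 these were Tnfrsf1b, a receptor for tumour necrosis factor, and Vamp5, a vesicle membrane protein, with differences of 0.070 and 0.071, where Spint2 itself moved by 0.630 around its mean and the median gene differed by 0.678. Both were lower in control replicate 2 than in control replicates 1 and 3, as Spint2 was. For Cd24a these were Micall2 and Shoc2, at 0.082 and 0.093 against 0.348 and a median of 0.414. For Epcam they were Dusp16 and Tead3, at 0.235 and 0.236 against 0.681, and for Ceacam1 Smad6 and Nostrin, at 0.254 and 0.309 against 1.104. The likeness is a description over libraries that share their groups, and the values of Epcam and Ceacam1 rest on few counts.

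**Figure D4:**
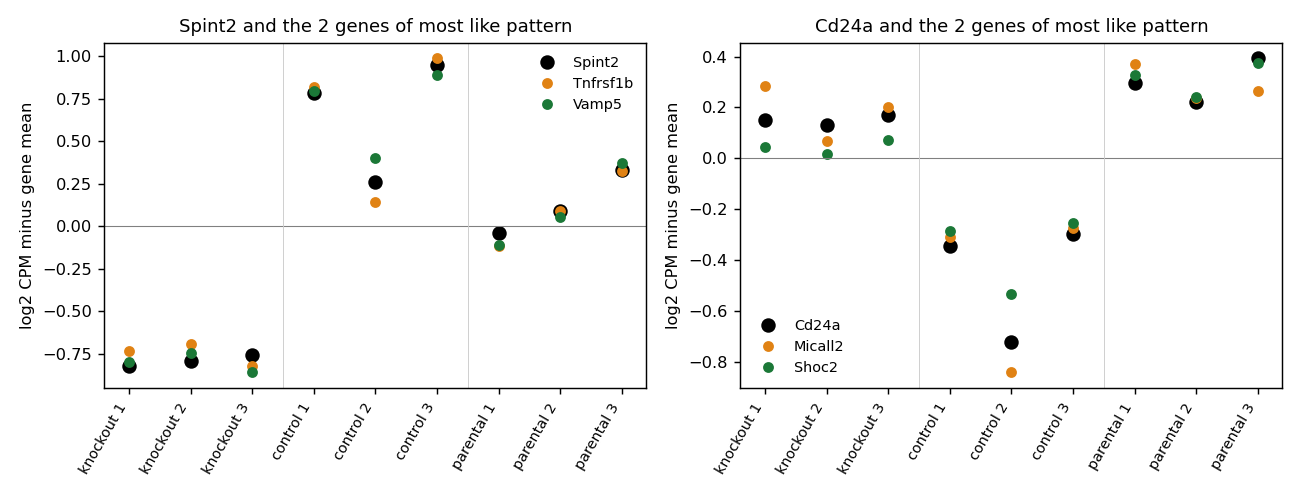
Log2 CPM minus the gene's own mean in each of the 9 libraries for Spint2 (left) and Cd24a (right) with the genes of most like course. Spint2 is lowest in the knockout libraries and Cd24a in the control libraries, and both dip in control replicate 2 relative to control replicates 1 and 3.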

How the data were processed

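The deposited table holds RSEM estimated counts per Ensembl gene for 9 libraries, made by the authors with 1 column per library. All values were whole, so rounding changed none. Per the submitters' processing notes, STAR 2.5.2, RSEM 1.3.0, DESeq2 1.10.1 and build GRCm38 were named, without their roles; the annotation release and strand setting are not given in the sources used here. RSEM divides reads that match several genes by an estimate, so counts of near-identical genes are uncertain. Symbols, positions and exon lengths came from GENCODE M21 (GRCm38), which held 54809 of 54838 identifiers.

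Counts were tested with edgeR 4.0.16 in R 4.3.3 (glmQLFit and glmQLFTest, group as the only term, all 9 libraries in 1 fit, TMM scaling, filterByExpr with minimum count 10 and total 15). The test was tried on simulated data. CPM values are TMM-scaled; log2 CPM used a prior count of 2; TPM used the summed exon length of each gene. A group without counts was set to 3 counts over the group for bounds. Intervals and floors describe counting error alone, because reads carry no molecular identifiers.

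The members, lists and rules were chosen with earlier results of these data known. Named genes were the members, Zdhhc20, genes of 7 pathway lists called in 1 direction in both knockout comparisons and past 1 on the log2 scale in both (at most 6 a list), direct partners (among them Prss8, Cdcp1, F2rl1, Cldn7, Ceacam2, Prom2 and Grhl2), the nearest tested gene on either side of a member and the 2 genes of most like course; Krt8, Krt18, Krt19, Cdh1, Tspan8, Mst1r, Esrp2, Plaur, Zeb1, Zeb2, Havcr2, Adam10, Met and Tmprss11e were added after their values were seen. Some genes that these rules name are not reported here. Ratios of each inhibitor to St14 within a library were planned and not computed, because St14 held at most 2 counts. Alternatives were DESeq2 1.42.0 size factors, total counts, no filter, a mean of at least 5 CPM, DESeq2, limma 3.58.1 voom, a replicate block, separate fits per pair of groups, leaving out every library once, and an added fold threshold.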

Additional observations from a re-analysis of the deposited data

How the results depend on the processing

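Over the refits (all alternatives but the fold threshold), the 4 tested members gave 195 log2 fold changes; 180 kept direction and call, 14 lost a call, 1 gained one and 0 changed direction. The lost calls were those of Epcam against the parental line and of Spint2 between the unedited clone and the parental line, and the gained call was that of Cd24a between the knockout clone and the parental line. Of 1591 values for other named genes, 1491 kept their call, 97 lost it and 3 gained it. With total-count scaling 1 member was called between the unedited clone and the parental line in place of 2. At a mean of at least 5 CPM, which removes Epcam and Ceacam1 by construction, 2 members were called against the unedited clone and 1 against the parental line, and 1 was apart in the knockout clone in place of 3. In fits of only the groups compared, the knockout clone against the parental line gave 6840 genes (4131 with all groups) and the unedited clone against it 1525 (2814), with 1 member called in the latter. With a log2 fold change past 1 in size required too, 1843 (of 5643), 1392 and 851 genes were called in the 3 comparisons, with 3, 2 and 0 members. Cd24a then loses both its calls and Spint2 those against the parental line. The cause of the shifts in genes called between fits was not tested. Leaving out 1 library gave 4301 to 7204, 2515 to 5693 and 1472 to 4102 genes in the 3 comparisons, 4, 2 to 3 and 1 to 2 members called, and 2 to 3 members apart. Counts differed by over 1.5 times without knockout replicate 1 (2626) or parental replicate 3 (2515) in the second comparison, and without parental replicates 1, 2 or 3 (1472, 1537 and 1792) in the third; the highest counts came without control replicates 2 or 3 (7204 and 6058, 5676 and 5693, 3930 and 4102).

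Replicates share numbers across groups. Same-numbered libraries did not deviate together in every pair (correlations of deviations from -0.22 to 0.34), so the numbers are not taken to pair the samples. With a replicate block 5528, 3941 and 2492 genes and 4, 3 and 2 members were called, and no call of a member changed. The planned ratios of Spint1 and Spint2 to St14 were not run under any setting. Depth limits Epcam and Ceacam1, and St14, Spint1 and Prom1 were too low to test.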
